A study of Mus musculus with 18 samples.

Results

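The MAPK phosphatases are the dual-specificity enzymes (Dusp) that act on MAP kinases. They were read through 10 genes chosen by symbol: Dusp1, Dusp2, Dusp4, Dusp5, Dusp6, Dusp7, Dusp8, Dusp9, Dusp10 and Dusp16. The array carried 11 probes for them among its 56605 probes, with 2 for Dusp8 and 1 for each other gene. All 10 passed the filter on dim probes and stood among the 16022 genes tested. Dusp10 and the second Dusp8 probe passed it through the Rescue-labelled groups alone, so their differences between the lines are given as values, with no test.

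These enzymes switch a MAP kinase off by removing phosphate from both the threonine and the tyrosine of its activation loop. Dusp1, Dusp2, Dusp4 and Dusp5 encode nuclear enzymes that are typically induced by the signal they dampen. Dusp6, Dusp7 and Dusp9 encode cytoplasmic enzymes that prefer ERK. Dusp8, Dusp10 and Dusp16 encode enzymes that prefer JNK and p38. In mouse embryonic stem cells, ERK activity downstream of FGF receptors primes the cells to leave self-renewal, and Dusp6 is widely used as a transcript that follows ERK activity.

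RNA came from mouse embryonic stem cells of strain 129SV on 18 arrays, 1 sample each. Per the labels, every sample carried an Esrrb knockout and expressed Raf-ErT2, a fusion kinase that can be turned on by 4-hydroxytamoxifen (4OHT) and feeds through Mek to ERK. Samples labelled Rescue (9 arrays) had an Esrrb transgene and those labelled KO (9 arrays) an empty vector. All cells were grown in serum and LIF with 2 uM Chir99021, a GSK3 inhibitor, and for the last 24 h the FGF receptor inhibitor PD173074 (250 nM) replaced Chir99021. Each line gave 3 arrays titled 0h (untreated), 3 titled 8h (250 nM 4OHT for 8 h) and 3 titled 8h2h (the same 8 h of 4OHT, then 2 h of Mek inhibition). The inhibitor and the 2 further hours cannot be told apart, and the sources used here do not give whether each line was a single clone. The source names of 12 arrays disagree with their titles, placing the Mek inhibitor on the arrays titled 8h and not on those titled 8h2h. Groups follow the titles here, so every comparison that uses 8h or 8h2h arrays rests on them. With the titles exchanged, the values given for 8h against 0h would be those of 8h2h against 0h, and the reverse. The line comparisons at these times would exchange in the same way, and each direction between 8h and 8h2h would turn over.

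Values are log2 signals relative to each array's 75th percentile, called the log2 scaled signal. The letters a, b and c mark 3 slides, each with all 6 groups, and the labels do not name them as separate cultures. Every p value therefore reflects array-to-array spread alone, which may be technical. On 17 arrays 46.6% to 63.8% of probes were well above background. The KO-labelled 8h2h array of replicate b stood apart at 88.6%, and dim probes read higher on it. The Rescue-labelled 0h array of replicate c had the lowest 75th percentile (297, others up to 765). All 8 embryonic stem cell markers listed were well above background on all 18 arrays. The summed linear signal of 9 trophoblast markers at 0h was 13 to 21.4 on KO-labelled and 160 to 184 on Rescue-labelled arrays, and it was also lower on the KO-labelled arrays at 8h (44.6 to 56.7 against 255 to 266) and 8h2h (38.9 to 42.8 against 230 to 253). Cdx2, Hand1 and Plac1 were well above background on no KO-labelled 0h array. The sum follows its brightest members and does not hold for every marker. At both 8h and 8h2h, Eomes was called higher on the KO-labelled arrays and Cdx2 was not called. At each of these times 6 of the 8 tested markers were called lower, against 12.4% and 12.3% of all genes. Esrrb itself read higher with the KO label in each of the 9 pairs of arrays that share slide and title, by 0.40 to 2.52, against what the labels would give for an empty vector. Directions between the lines therefore rest on the labels as given.

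After 8 h of 4OHT, 5 of the 10 MAPK phosphatase genes were higher than at 0h in both lines. Over all genes, 13% and 11.9% were called higher there in the Rescue- and KO-labelled lines. The same 5 genes were lower at 8h2h than at 8h in both lines, where 1.45% and 3.2% of all genes were called lower. These 5 were the 4 inducible nuclear enzymes and Dusp6. None of the other 5 genes passed the test in any of these 4 comparisons. The plot of signals by array shows all 10 genes.

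**Figure D1:**
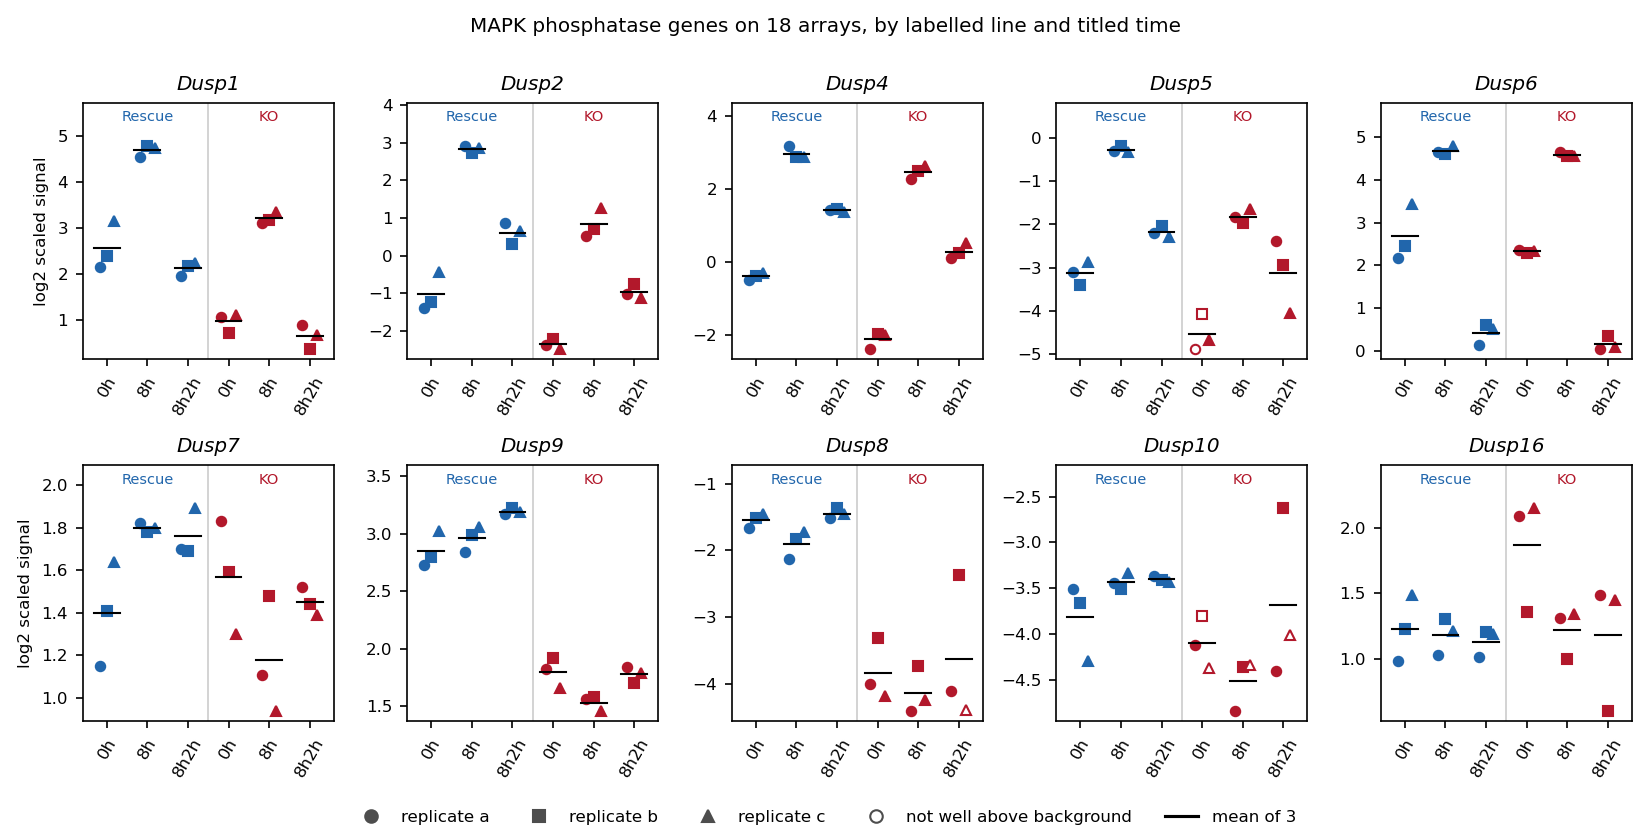
Log2 scaled signal of the 10 MAPK phosphatase genes on the 18 arrays (y axis), by labelled line and titled time (x axis). Points are arrays a, b and c, open points were not well above background, and black lines are means of 3. Dusp6 falls below its 0h arrays at 8h2h in both lines, whereas Dusp2 and Dusp4 stay above theirs, and Dusp8 and Dusp9 are separated by line at every time.

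Dusp1 encodes the nuclear phosphatase of the immediate-early response that acts on p38, JNK and ERK. On the Rescue-labelled arrays a, b and c it read 2.16, 2.38 and 3.14 at 0h, 4.53, 4.77 and 4.74 at 8h, and 1.95, 2.17 and 2.23 at 8h2h. On the KO-labelled arrays it read 1.07, 0.73 and 1.11 at 0h, 3.10, 3.18 and 3.35 at 8h, and 0.90, 0.38 and 0.67 at 8h2h. In each line the 8h arrays lay above all others, and the 0h and 8h2h arrays overlapped. The rise from 0h to 8h was 2.12 ± 0.21 (log2 difference ± SE, n = 3 per group, 4.35-fold, adjusted p = 3.92e-06 by limma) in the Rescue-labelled line and 2.24 ± 0.21 (4.74-fold, adjusted p = 2.73e-06) in the KO-labelled line. From 8h to 8h2h it fell by 2.56 in both lines (5.91-fold, adjusted p = 7.22e-06 and 4.42e-06). The 8h2h level differed from the 0h level by -0.44 ± 0.21 (adjusted p = 0.169) and -0.32 ± 0.21 (adjusted p = 0.307), neither of which passed the test.

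Dusp2 encodes a nuclear phosphatase known from activated lymphocytes, with ERK and p38 among its substrates. The Rescue-labelled arrays gave -1.40, -1.23 and -0.45 at 0h, 2.91, 2.72 and 2.86 at 8h, and 0.86, 0.32 and 0.66 at 8h2h. The KO-labelled arrays gave -2.39, -2.21 and -2.48 at 0h, 0.51, 0.71 and 1.26 at 8h, and -1.02, -0.75 and -1.14 at 8h2h. The 3 times did not overlap in either line, with 8h2h between 0h and 8h. Dusp2 rose by 3.85 ± 0.24 (14.5-fold, adjusted p = 3.72e-08) in the Rescue-labelled line and by 3.19 ± 0.24 (9.13-fold, adjusted p = 2.69e-07) in the KO-labelled line. It then fell by 2.21 (4.64-fold, adjusted p = 8.25e-05) and by 1.80 (3.48-fold, adjusted p = 0.000292). At 8h2h it was still 1.64 ± 0.24 (3.11-fold, adjusted p = 0.000183) and 1.39 ± 0.24 (2.62-fold, adjusted p = 0.000781) above 0h.

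Dusp4 encodes a nuclear phosphatase of ERK, JNK and p38. On the Rescue-labelled arrays it read -0.50, -0.39 and -0.30 at 0h, 3.18, 2.88 and 2.89 at 8h, and 1.44, 1.45 and 1.38 at 8h2h. On the KO-labelled arrays it read -2.38, -1.98 and -2.00 at 0h, 2.27, 2.51 and 2.65 at 8h, and 0.10, 0.24 and 0.51 at 8h2h. The replicates lay close together and the 3 times were fully separated in both lines. Dusp4 rose by 3.38 ± 0.14 (10.4-fold, adjusted p = 1.57e-09) in the Rescue-labelled line and by 4.59 ± 0.14 (24.2-fold, adjusted p = 1.14e-10) in the KO-labelled line, where it had the 28th highest change of the 16022 genes. At 8h2h against 8h it fell by 1.56 (2.95-fold, adjusted p = 1.8e-05) and by 2.20 (4.58-fold, adjusted p = 3.36e-07). It remained 1.82 ± 0.14 (3.52-fold, adjusted p = 6.84e-07) and 2.40 ± 0.14 (5.27-fold, adjusted p = 7.88e-08) above 0h.

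Dusp5 encodes a nuclear phosphatase selective for ERK, and its signal was dim. The Rescue-labelled arrays gave -3.11, -3.40 and -2.86 at 0h, -0.30, -0.20 and -0.32 at 8h, and -2.21, -2.04 and -2.30 at 8h2h. The KO-labelled arrays gave -4.87, -4.07 and -4.66 at 0h, where 1 of 3 was well above background, then -1.84, -1.98 and -1.65 at 8h and -2.38, -2.93 and -4.04 at 8h2h. The order of the times matched that of Dusp2, with a wide spread on the KO-labelled 8h2h arrays. Dusp5 rose by 2.84 ± 0.32 (7.18-fold, adjusted p = 1.1e-05) and by 2.71 ± 0.32 (6.55-fold, adjusted p = 1.87e-05) in the Rescue- and KO-labelled lines, the second against a 0h group with 1 of 3 arrays well above background. With normexp background correction the KO-labelled rise was 1.16 (adjusted p = 0.000135). Dusp5 fell by 1.90 (3.74-fold, adjusted p = 0.00351) and by 1.29 (2.45-fold, adjusted p = 0.0235) at 8h2h against 8h. The second fall lost its call without replicate a or c of the KO-labelled 8h arrays (adjusted p = 0.0632 and 0.0967), and quantile normalization left neither fall called (adjusted p = 0.311 and 0.0583). The second fall was uncalled as well with no scaling (-1.14, adjusted p = 0.162) and in a fit of the compared arrays alone (adjusted p = 0.292). The KO-labelled fall was also -0.77 with normexp correction (adjusted p = 0.0174), -2.52 with quantile normalization and -0.83 without replicate c of the KO-labelled 8h2h arrays (adjusted p = 0.0429). Against 0h, Dusp5 at 8h2h was higher by 0.94 ± 0.32 (adjusted p = 0.0484, 0.0557 with the slide as a block, and 0.0542 to 0.144 without any single Rescue-labelled 0h or 8h2h array) in the Rescue-labelled line and by 1.42 ± 0.32 (2.67-fold, adjusted p = 0.00525) in the KO-labelled line. Replicates a, b and c of that KO-labelled difference were 2.49, 1.14 and 0.62, and quantile normalization gave 0.12 (adjusted p = 0.918) in place of 1.42. A fit of the compared arrays alone left that difference uncalled at 1.42 (adjusted p = 0.139). Normexp correction gave 0.47 and 0.38 at 8h2h against 0h (adjusted p = 0.0848 and 0.167), so neither line was called.

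Dusp6 encodes the cytoplasmic ERK phosphatase that feeds back on ERK signalling. The Rescue-labelled arrays read 2.18, 2.46 and 3.44 at 0h, 4.64, 4.60 and 4.78 at 8h, and 0.15, 0.61 and 0.52 at 8h2h. The KO-labelled arrays read 2.37, 2.30 and 2.34 at 0h, 4.64, 4.56 and 4.56 at 8h, and 0.06, 0.36 and 0.10 at 8h2h. At 8h2h every array lay below every 0h array of its line, unlike Dusp1, Dusp2, Dusp4 and Dusp5. Dusp6 rose by 1.98 ± 0.23 (3.95-fold, adjusted p = 1.9e-05) and by 2.25 ± 0.23 (4.75-fold, adjusted p = 6.36e-06). It fell at 8h2h against 8h by 4.25 (19-fold, adjusted p = 1.42e-07), the 6th lowest of 16022 changes in the Rescue-labelled line, and by 4.41 (21.3-fold, adjusted p = 6.33e-08), the 4th lowest in the KO-labelled line. Its 8h2h level was below 0h by 4.81-fold (-2.27 ± 0.23, adjusted p = 8.8e-06) and by 4.48-fold (-2.16 ± 0.23, adjusted p = 1.48e-05).

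On the scaled values, replicate c of the Rescue-labelled 0h arrays was the highest of its group for every member except Dusp10, where it was the lowest. In the deposited intensities, before scaling, it was the highest for Dusp1, Dusp2 and Dusp6 alone and the lowest for all other members. Whether the scaling raised its values was not tested. Without that array the rises of Dusp1, Dusp2 and Dusp6 to 8h were 2.41, 4.14 and 2.35. The 8h2h difference from 0h was then -0.15 for Dusp1 (adjusted p = 0.63), 1.93 for Dusp2 and -1.89 for Dusp6.

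Promoter sequence was at hand for 8 of the 10 genes, with Dusp4 and Dusp9 not among them. It is the RefSeq sequence of build GRCm38.p6, read for the 250 bases before each start and given 5′ to 3′ on the gene's strand. The 4 induced genes with a sequence, and Dusp8, whose level followed the line, are shown to compare the letters that stand upstream of genes with different time courses. Capitals mark matches on either strand to the AP-1 letters TGANTCA, the ETS letters CCGGAA, the CRE half-site TGACG, the E-box CACGTG and the CArG box.
Dusp1 (chr17:26508473-26508722, minus strand): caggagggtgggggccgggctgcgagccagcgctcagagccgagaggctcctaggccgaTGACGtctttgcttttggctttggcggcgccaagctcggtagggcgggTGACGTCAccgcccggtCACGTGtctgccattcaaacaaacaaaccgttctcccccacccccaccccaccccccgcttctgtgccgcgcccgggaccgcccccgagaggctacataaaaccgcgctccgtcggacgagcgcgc
Dusp2 (chr2:127335909-127336158, plus strand): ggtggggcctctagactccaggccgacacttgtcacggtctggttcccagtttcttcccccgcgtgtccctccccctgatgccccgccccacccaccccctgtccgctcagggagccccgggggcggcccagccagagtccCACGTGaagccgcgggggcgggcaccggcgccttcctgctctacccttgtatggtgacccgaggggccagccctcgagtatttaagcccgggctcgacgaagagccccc
Dusp5 (chr19:53528895-53529144, plus strand): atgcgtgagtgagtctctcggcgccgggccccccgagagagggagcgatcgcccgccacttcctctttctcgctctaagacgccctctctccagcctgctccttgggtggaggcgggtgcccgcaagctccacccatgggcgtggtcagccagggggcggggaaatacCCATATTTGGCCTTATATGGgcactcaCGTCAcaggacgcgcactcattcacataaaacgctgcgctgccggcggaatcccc
Dusp6 (chr10:99262981-99263230, plus strand): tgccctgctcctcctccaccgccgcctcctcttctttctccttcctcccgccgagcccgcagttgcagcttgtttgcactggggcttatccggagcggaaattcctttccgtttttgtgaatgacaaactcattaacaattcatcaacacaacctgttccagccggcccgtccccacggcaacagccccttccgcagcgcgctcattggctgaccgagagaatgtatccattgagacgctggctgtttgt
Dusp8 (chr7:142095285-142095534, minus strand): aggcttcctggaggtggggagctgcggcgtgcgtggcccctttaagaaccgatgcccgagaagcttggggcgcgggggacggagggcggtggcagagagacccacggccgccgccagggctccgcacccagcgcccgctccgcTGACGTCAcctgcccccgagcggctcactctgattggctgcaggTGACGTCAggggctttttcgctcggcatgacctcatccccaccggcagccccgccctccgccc

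Dusp1 held 3 CRE half-sites, 2 of them overlapping on opposite strands, and 1 E-box. Dusp2 held 1 E-box. Dusp5 held 2 adjacent CArG boxes, the letters read by serum response factor, and 1 CRE half-site. Dusp6 held no match to any of the 5 motifs in this window. Dusp8, called in no comparison within a line, held 4 CRE half-sites in 2 overlapping pairs. Of the other 3 genes, Dusp16 held 1 CRE half-site, and Dusp7 and Dusp10 held none of the 5 motifs. Among 32851 RefSeq promoter windows of the same length, 17.8% held a CRE half-site, 12% the ETS letters, 6.75% the AP-1 letters, 6.02% the E-box and 1.47% a CArG box. A match describes letters and does not show a bound site.

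Dusp7 and Dusp9, the other cytoplasmic ERK phosphatases, did not follow Dusp6. Dusp7 read 1.15, 1.41 and 1.64 at 0h, 1.82, 1.78 and 1.80 at 8h and 1.70, 1.69 and 1.89 at 8h2h on the Rescue-labelled arrays. On the KO-labelled arrays it read 1.83, 1.59 and 1.30, then 1.11, 1.48 and 0.94, then 1.52, 1.44 and 1.39. Its 0h and 8h arrays separated by a small gap in the Rescue-labelled line and overlapped in the KO-labelled line. The 8h change was 0.40 ± 0.16 (adjusted p = 0.0754) and -0.40 ± 0.16 (adjusted p = 0.0855), so neither passed the test. Without replicate c of the Rescue-labelled 0h arrays the first was 0.52 (adjusted p = 0.033). With normexp correction it was 0.53 (adjusted p = 0.0116), and Dusp7 was also called at 8h2h against 0h in that line (0.46, adjusted p = 0.0346). Without replicate c of the KO-labelled 0h arrays the second was -0.53 (adjusted p = 0.0337), and without replicate b of the KO-labelled 8h arrays it was -0.55 (adjusted p = 0.0233).

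Dusp9 lies on the X chromosome and is known as a brake on ERK in embryonic stem cells. The Rescue-labelled arrays gave 2.73, 2.80 and 3.02 at 0h, 2.84, 2.99 and 3.06 at 8h, and 3.17, 3.22 and 3.19 at 8h2h. The KO-labelled arrays gave 1.82, 1.92 and 1.66, then 1.56, 1.58 and 1.46, then 1.84, 1.70 and 1.79. Every KO-labelled array lay below every Rescue-labelled array, while the times within a line lay within 0.34 of each other in their means. Dusp9 was 0.34 ± 0.10 higher at 8h2h than at 0h in the Rescue-labelled line (adjusted p = 0.0261). That call was lost without any of 5 Rescue-labelled arrays (replicates a and b at 0h, and all 3 at 8h2h, adjusted p = 0.0555 to 0.0973), and no scaling gave 0.75 (adjusted p = 0.0679). In the KO-labelled line the 8h level differed from 0h by -0.27 ± 0.10 (adjusted p = 0.0706, and 0.0386 without replicate c of the KO-labelled 0h arrays or 0.0351 without replicate c of the Rescue-labelled 0h arrays). That difference was also called with normexp correction (-0.39, adjusted p = 0.0266) and with quantile normalization (-0.29, adjusted p = 0.048).

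The 3 genes for enzymes that prefer JNK and p38 passed the test in no comparison within a line, with 0 of 3 below an unadjusted p of 0.05 in the 3 Rescue-labelled comparisons and 1 of 3 in each KO-labelled one. Over all genes the shares below that unadjusted p were 11.1% to 38.4% and 20.8% to 35.3%, so these counts are near the background. Dusp8 read -1.67, -1.52 and -1.45 at 0h, -2.13, -1.83 and -1.72 at 8h and -1.51, -1.37 and -1.46 at 8h2h on the Rescue-labelled arrays. On the KO-labelled arrays it read -4.00, -3.31 and -4.18, then -4.40, -3.73 and -4.24, then -4.11, -2.37 and -4.39. The value of -2.37 came from the array with high background, and the one of -4.39 was not well above background. Dusp10, whose product acts on JNK and p38, was well above background on 14 of 18 arrays and ranged from -4.30 to -3.33 on the Rescue-labelled and from -4.84 to -2.63 on the KO-labelled arrays. Its value of -2.63 again came from the array with high background. Its change from 8h to 8h2h in the KO-labelled line was 0.83 (adjusted p = 0.181), and 0.31 (adjusted p = 0.608) without the array with high background. Without replicate a of the KO-labelled 8h2h arrays, which keeps that array, it was called (1.19, adjusted p = 0.0461).

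Dusp16, whose product shuttles between nucleus and cytoplasm, read 0.98, 1.23 and 1.49 at 0h, 1.03, 1.30 and 1.21 at 8h and 1.01, 1.20 and 1.19 at 8h2h on the Rescue-labelled arrays. On the KO-labelled arrays it read 2.09, 1.36 and 2.15, then 1.31, 1.00 and 1.34, then 1.49, 0.60 and 1.45. The KO-labelled 0h arrays a and c were the highest of all, and array b stood lower. The KO-labelled change from 0h was -0.65 ± 0.24 at 8h (adjusted p = 0.0643) and -0.69 ± 0.24 at 8h2h (adjusted p = 0.0546). Without the array with high background the change at 8h2h was -0.40 (adjusted p = 0.206). With the slide as a block the adjusted p was 0.0391 and 0.0327. Normexp correction gave -0.75 and -0.79 (adjusted p = 0.0412 and 0.0394). A trended and robust prior gave adjusted p = 0.0382 and 0.032, and probes required on all 18 arrays gave 0.0444 and 0.0391. With quantile normalization the change at 8h was called (adjusted p = 0.0497) and the one at 8h2h was not (adjusted p = 0.0661). The change at 8h was also called when the array with high background was left out (-0.65, adjusted p = 0.0176) and without replicate b of the KO-labelled 0h arrays (-0.90, adjusted p = 0.0129), and the one at 8h2h without the latter (-0.94, adjusted p = 0.0124). The change at 8h2h was called as well without replicate a or c of the KO-labelled 8h2h arrays (adjusted p = 0.0344 and 0.0454) or replicate c of the Rescue-labelled 0h arrays (adjusted p = 0.0495).

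**Figure D2:**
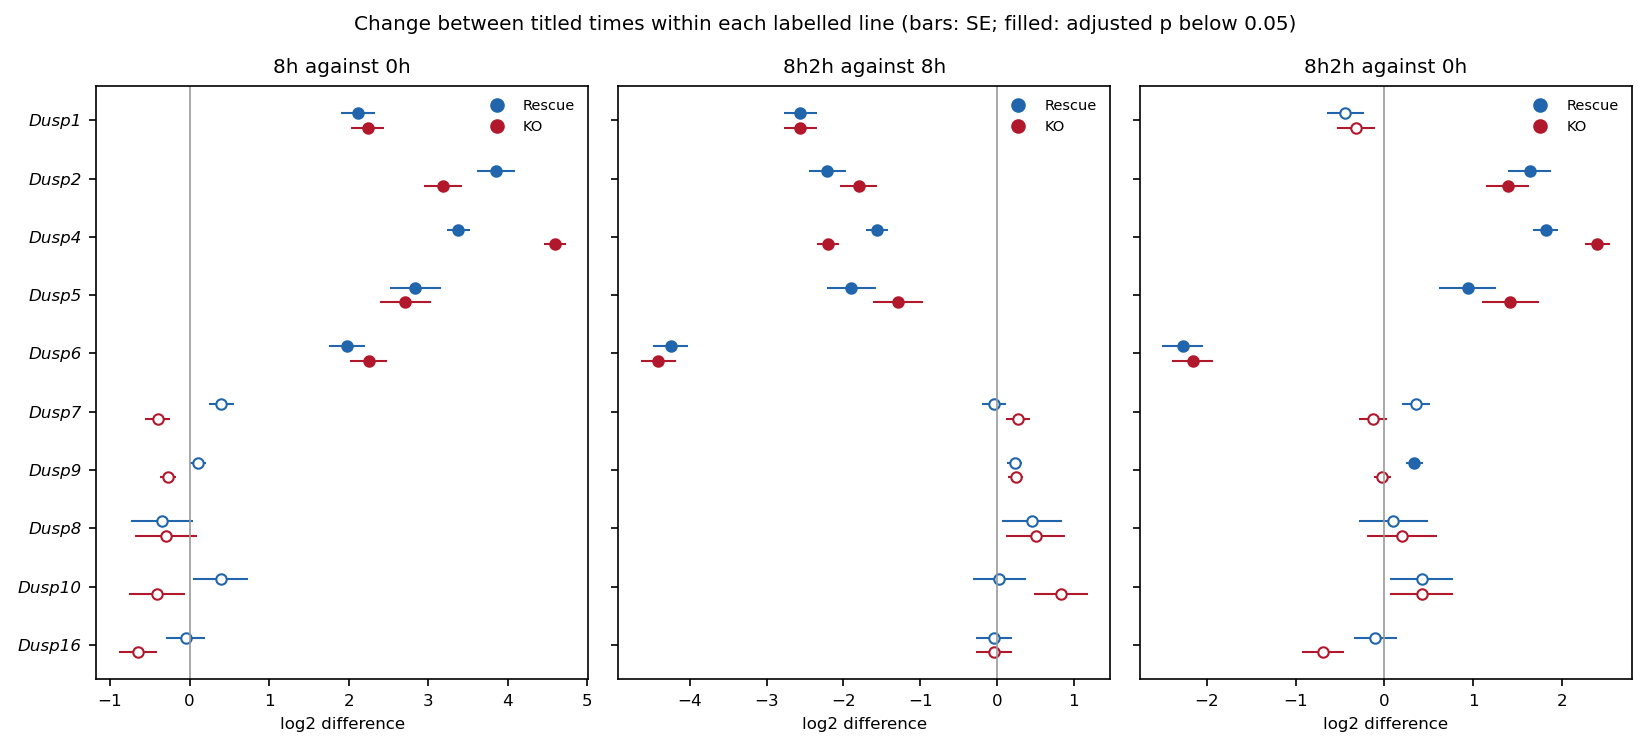
Log2 difference between titled times within each labelled line (x axis) for each gene (y axis), with bars of 1 SE and filled points where the adjusted p was below 0.05. At 8h2h against 0h, Dusp6 sits at -2.27 and -2.16 whereas Dusp4 sits at 1.82 and 2.40.

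Counted over the family, 5 genes were higher and 0 lower at 8h than at 0h in the Rescue-labelled line, where 29.1% of all genes were called (13% higher and 16.1% lower). In the KO-labelled line 5 were higher and 0 lower, against 25.4% of all genes called (11.9% higher and 13.5% lower). At 8h2h against 8h, 5 were lower and 0 higher in the Rescue-labelled line, against 2.88% of all genes called (1.43% higher and 1.45% lower). The KO-labelled line had 5 lower and 0 higher, against 7.35% called (4.14% higher and 3.2% lower). At 8h2h against 0h, 4 were higher and 1 lower in the Rescue-labelled line (21.3% of all genes called, 10.5% higher and 10.8% lower), and 3 were higher and 1 lower in the KO-labelled line (22.4% called, 11% higher and 11.4% lower). The median change of the 10 genes at 8h was 1.19 and 0.99 in the Rescue- and KO-labelled lines, against -0.05 and -0.04 over all genes. The median from 8h to 8h2h was -0.80 and -0.67, against 0.00 and 0.01 over all genes. With no scaling the calls over all genes at 8h against 0h were 80.7% and 79.2% higher, where the scaled values gave 44.7% and 46.9%. At 8h2h against 0h they were 90.8% and 95.6% higher in place of 49.3% and 49.2%, and at 8h2h against 8h in the KO-labelled line 74.4% in place of 56.4%. These comparisons share arrays within a line, since the 8h arrays enter both the rise and the fall.

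The lines were compared at each titled time by their labels. The Esrrb transgene and other differences between the lines cannot be told apart here. Dusp10 is left out of these counts for the filter named above. At 0h, 6 of the other 9 genes were lower on the KO-labelled arrays and 0 were higher, where 18.4% of all genes were called (7.09% higher and 11.3% lower). At 8h, 7 were lower and 0 higher, against 21.5% called (9.16% higher and 12.4% lower). At 8h2h, 6 were lower and 0 higher, against 21.8% called (9.55% higher and 12.3% lower). Of the calls over all genes at 8h2h, 43.8% were higher, and 64.2% with no scaling and 33.6% with quantile normalization. The median difference of the 9 genes was -1.34, -1.43 and -1.14, against -0.02, -0.01 and 0.01 over all genes. The trophoblast marker sum given above moved with the line as well, and its part in these differences was not tested.

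The 4 inducible nuclear genes were lower on the KO-labelled arrays at all 3 times. Dusp1 differed by -1.59 ± 0.21 (3.01-fold, adjusted p = 0.000145) at 0h, -1.47 ± 0.21 (2.77-fold, adjusted p = 0.000226) at 8h and -1.47 ± 0.21 (adjusted p = 0.000234) at 8h2h. Dusp2 differed by -1.34 ± 0.24 (2.53-fold, adjusted p = 0.00129), -2.00 ± 0.24 (4-fold, adjusted p = 4.69e-05) and -1.59 ± 0.24 (3-fold, adjusted p = 0.000305), the first -0.84 (adjusted p = 0.00626) with normexp correction. Their groups did not overlap between the lines at any time. Dusp4 differed by -1.72 ± 0.14 (3.3-fold, adjusted p = 3.86e-06) at 0h, by -0.51 ± 0.14 (1.42-fold, adjusted p = 0.0194) at 8h and by -1.14 ± 0.14 (2.21-fold, adjusted p = 7.31e-05) at 8h2h. Its difference at 8h was not called without replicate a of either line at 8h (adjusted p = 0.0892 and 0.0992) nor with no scaling (adjusted p = 0.442). Dusp5 differed by -1.42 ± 0.32 (adjusted p = 0.00631), -1.55 ± 0.32 (adjusted p = 0.00295) and -0.94 ± 0.32 (adjusted p = 0.0482, and 0.0556 with the slide as a block). The last was uncalled without any single Rescue-labelled 8h2h array (adjusted p = 0.0892 to 0.139) and was -0.48 (adjusted p = 0.172) without replicate c of the KO-labelled ones, -0.52 (adjusted p = 0.0556) with normexp correction and -2.18 (adjusted p = 0.0377) with quantile normalization. At 0h the Dusp5 difference was -0.44 (adjusted p = 0.119) with normexp correction, and quantile normalization left it uncalled at 0h and 8h (adjusted p = 0.207 and 0.168). With no scaling it was uncalled at 0h and 8h2h (adjusted p = 0.056 and 0.292). A fit of the compared arrays alone left it uncalled at 8h2h (adjusted p = 0.23).

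Dusp6, which had the steepest fall of the 10 genes at 8h2h, was not called between the lines at any time. Its KO minus Rescue difference was -0.36 at 0h (95% confidence interval -0.86 to 0.14, adjusted p = 0.336), -0.09 at 8h (-0.59 to 0.41, adjusted p = 0.849) and -0.26 at 8h2h (-0.76 to 0.25, adjusted p = 0.485). Without replicate c of the Rescue-labelled 0h arrays the first was 0.01. Dusp9 was lower on the KO-labelled arrays by 1.05 ± 0.10 (2.07-fold, adjusted p = 1.4e-05), 1.43 ± 0.10 (2.69-fold, adjusted p = 9.54e-07) and 1.41 ± 0.10 (2.67-fold, adjusted p = 1.59e-06). Dusp7 was lower at 8h by 0.62 ± 0.16 (1.54-fold, adjusted p = 0.012, 0.0602 without replicate c of the KO-labelled 8h arrays, and 0.399 with no scaling). At 0h and 8h2h Dusp7 differed by 0.18 ± 0.16 (adjusted p = 0.505) and -0.31 ± 0.16 (adjusted p = 0.19).

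Dusp8 was lower on the KO-labelled arrays at all 3 times, by 4.85-fold at 0h (-2.28 ± 0.39, adjusted p = 0.00108), 4.69-fold at 8h (-2.23 ± 0.39, adjusted p = 0.00106) and 4.53-fold at 8h2h (-2.18 ± 0.39, adjusted p = 0.00126, and 0.0585 in a fit of the compared arrays alone). With normexp correction the differences were -1.14, -1.28 and -1.42 (adjusted p = 0.00184, 0.00056 and 0.000234). Leaving out the array with high background gave -2.81 (adjusted p = 3.83e-06) at 8h2h. The second Dusp8 probe read -2.53, -2.60 and -2.82 on the Rescue-labelled 0h arrays and was well above background on none of the KO-labelled 0h or 8h arrays. By that probe Dusp8 was at least 3.45-fold lower at 0h and at least 4.41-fold lower at 8h. Such a bound sets the Rescue-labelled mean against the lowest signal read well above background, or the probe's own where higher, on the KO-labelled arrays.

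The KO minus Rescue difference of Dusp10 was -1.09 ± 0.35 at 8h, where 2 of 3 KO-labelled arrays were well above background, and -0.53 there with normexp correction. At 8h2h it was -0.28 ± 0.35 over all its arrays and -0.81 ± 0.23 when the array with high background was left out. Dusp16 differed by 0.64 ± 0.24 at 0h (adjusted p = 0.0854), by 0.04 at 8h and by 0.04 at 8h2h. At 0h it was called higher on the KO-labelled arrays when the array with high background was left out (adjusted p = 0.0243) and without replicate b of the KO-labelled 0h arrays (0.89, adjusted p = 0.0174).

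**Figure D3:**
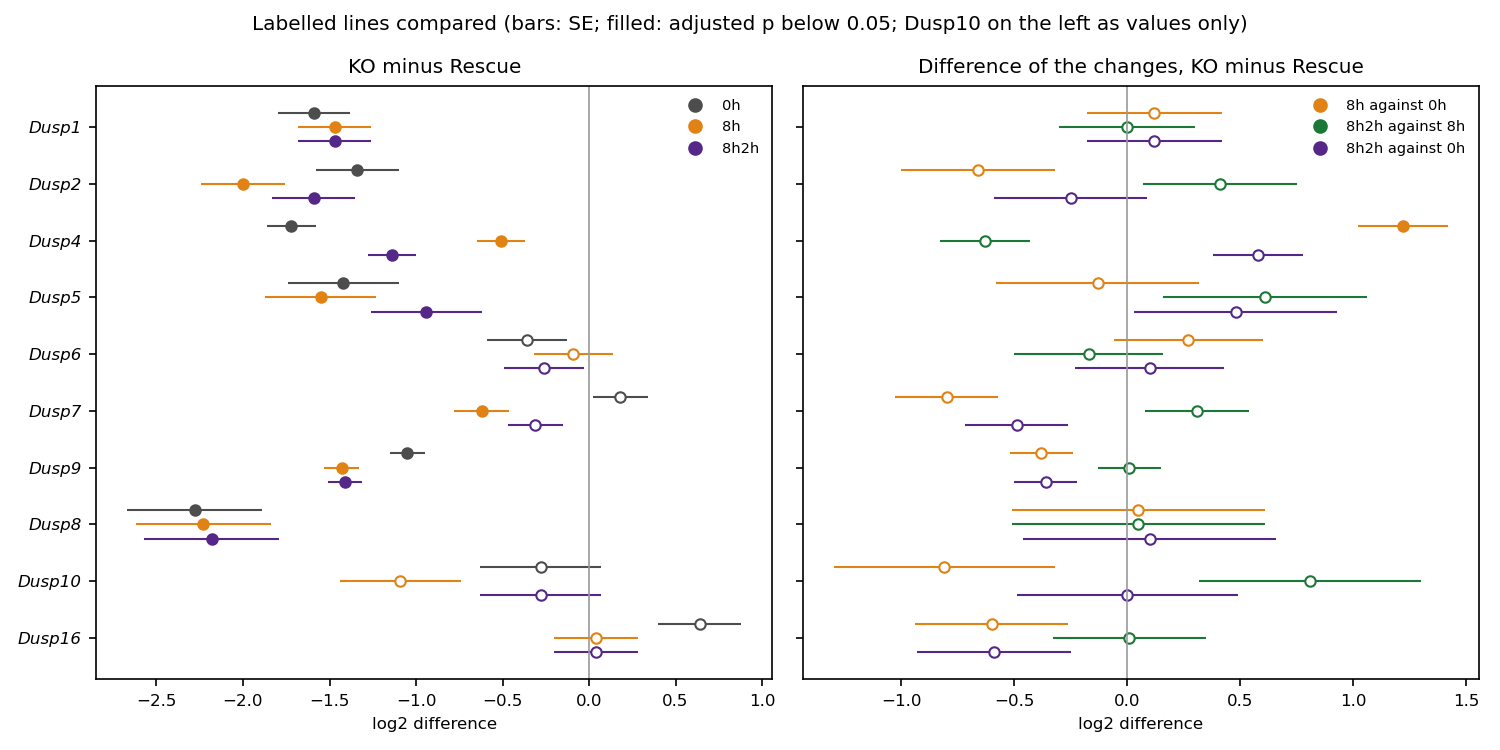
KO minus Rescue log2 difference at each titled time (left) and the difference of the changes between times, KO minus Rescue (right), for each gene, with bars of 1 SE and filled points where the adjusted p was below 0.05. Dusp4 at 8h against 0h (1.22) is the filled point on the right, and no member lies to the right of 0 with a filled point on the left, where Dusp10 is drawn open because its differences are given with no test.

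Whether the change over time differed between the lines was tested by the interaction. Dusp4 alone passed among the 10 genes. Its rise from 0h to 8h was larger in the KO-labelled line by 1.22 ± 0.20 (2.32-fold, adjusted p = 0.00555), with 0.97, 1.22 and 1.46 on slides a, b and c, where 2.28% of all genes were called (1.07% higher and 1.21% lower). With no scaling 25.9% of the calls over all genes were higher in place of 46.8%. The KO-labelled arrays started 1.72 lower and ended 0.51 lower, so their levels at 8h lay closer together than at 0h. With normexp background correction the interaction was 0.78 (adjusted p = 0.0956), and with no scaling 1.20 (adjusted p = 0.231). For Dusp7 it was -0.80 ± 0.23 (adjusted p = 0.0949, and 0.037 without replicate b of the KO-labelled 8h arrays). With normexp correction Dusp7 was called (-0.88, adjusted p = 0.0329), so under that setting the single call among the members was Dusp7 in place of Dusp4. For Dusp1 it was 0.12 (95% confidence interval -0.52 to 0.77), for Dusp6 0.27 (-0.44 to 0.98) and for Dusp2 -0.66 (-1.38 to 0.06).

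At 8h2h against 8h the interaction was called for 0 of 10 members by limma, where 0.0562% of all genes were called (0.0499% higher and 0.00624% lower). At an unadjusted p below 0.05 there was 1 member (Dusp4, -0.63 ± 0.20, adjusted p = 0.996), and 2.76% of all genes passed that unadjusted threshold. Of the few adjusted calls over all genes 88.9% were higher, and 100% of 5 with no scaling and 66.7% of 3 with quantile normalization. At 8h2h against 0h it was called for 0 of 10, with 3 at an unadjusted p below 0.05, where 13.7% of all genes passed that unadjusted threshold and 2.02% were called (1.19% higher and 0.83% lower). The interval for Dusp6 was -0.88 to 0.54 at 8h2h against 8h and -0.61 to 0.81 at 8h2h against 0h, and that for Dusp1 was -0.65 to 0.65 and -0.52 to 0.77.

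Across the 18 arrays Dusp2, Dusp4 and Dusp5 went together. The Pearson correlation of log2 scaled signals was 0.97 between Dusp2 and Dusp5, 0.94 between Dusp2 and Dusp4 and 0.92 between Dusp4 and Dusp5. Dusp1 correlated at 0.86 with Dusp2, at 0.85 with Dusp5, at 0.80 with Dusp6 and at 0.77 with Dusp4. Dusp6 stood further from Dusp2 (0.51), Dusp5 (0.50) and Dusp4 (0.45). Dusp8 and Dusp9 correlated at 0.92. The arrays share 6 groups and 3 slides, so these values describe the group pattern and carry no p.

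**Figure D4:**
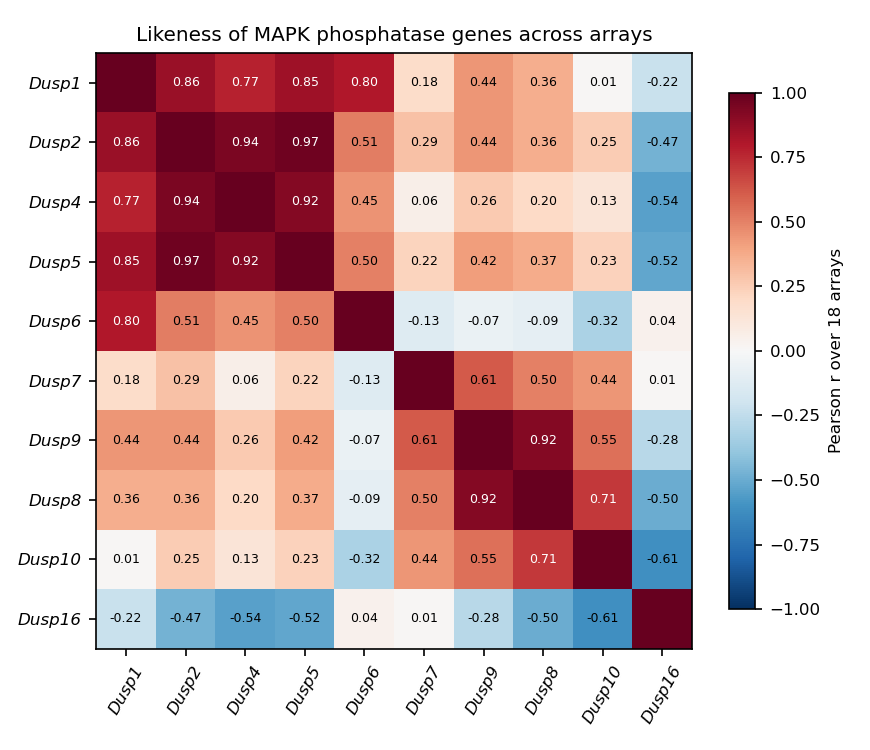
Pearson correlation of log2 scaled signals over 18 arrays for each pair of MAPK phosphatase genes, with colour from -1 (blue) to 1 (red). Dusp2, Dusp4 and Dusp5 form a block of 0.92 to 0.97, and Dusp8 with Dusp9 (0.92) is the high pair among the remaining genes.

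The named genes most like each member differed. For Dusp6 they were Myc (0.982), Epha2 (0.975) and Fos (0.96), over the same 18 arrays. Dusp1 was nearest to Shb (0.962), Pmaip1 (0.957) and the AP-1 gene Junb (0.951). For Dusp2 they were the cytokine gene Il11 (0.984), Zdhhc20 (0.967) and Dusp5 (0.965). Dusp4 was nearest to the chemokine gene Ccl20 (0.982), the retinoic acid hydroxylase gene Cyp26a1 (0.978) and the urokinase receptor gene Plaur (0.971), and Dusp5 to Dusp2, Cyp26a1 (0.955) and Il11 (0.948). For Dusp9 they were Cldn7 (0.982), Pcgf5 (0.98) and Fes (0.979), and for Dusp8 Gata2 (0.977), the keratin gene Krt7 (0.976) and Slco3a1 (0.972). Dusp7 had no gene above 0.797 (Rgs16), and Dusp10 was nearest to Plxna4 (0.947). Dusp16 was called in no comparison and was not searched.

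The rest of the MAPK pathway was read through 6 lists, beside shares of all genes called of 29.1% and 25.4% at 8h against 0h and 2.88% and 7.35% at 8h2h against 8h in the Rescue- and KO-labelled lines. Of the 10 genes tested among other feedback inhibitors of ERK signalling, 8 were higher and 0 lower at 8h in each line, with medians of 1.26 and 1.30. Between 8h and 8h2h, 5 and 7 of them fell and 0 rose. Spry4, a Sprouty inhibitor upstream of ERK, rose by 3.85 ± 0.38 (adjusted p = 3.04e-06) and 3.04 ± 0.38 (adjusted p = 3.13e-05) and its changes at 8h2h against 8h were -4.98 (adjusted p = 2.28e-06) and -5.24 (adjusted p = 1.04e-06). On the KO-labelled 8h2h arrays Spry4 was well above background on 1 of 3, so its size there is uncertain. Like Dusp6, Spry4 was in the lower calls of 8h2h against 0h in both lines.

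Of 20 immediate-early and ERK-induced transcription factor genes, 14 were higher and 2 lower at 8h in the Rescue-labelled line and 12 higher and 0 lower in the KO-labelled line. Egr3, among those higher in both lines, passed the filter on dim probes through 8h and 8h2h groups alone. Between 8h and 8h2h, 9 and 10 of the 20 genes fell and 0 rose. Egr1 rose by 4.62 ± 0.15 (adjusted p = 1.51e-10) and 2.60 ± 0.15 (adjusted p = 3.48e-08), and Myc changed by -3.65 (adjusted p = 2.76e-09) and -4.26 (adjusted p = 3.31e-10) at 8h2h against 8h.

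The other phosphatase lists were counted in the same way. Of the 15 atypical dual-specificity phosphatase genes tested of 18 listed, 3 were higher and 3 lower at 8h in the Rescue-labelled line, 2 higher and 4 lower in the KO-labelled line, and 0 in either direction at 8h2h against 8h in both. Dusp18, among those higher in both lines, passed the filter on dim probes through 8h and 8h2h groups alone. Dusp14, a small phosphatase outside the MAPK-binding class, rose in the Rescue-labelled line (1.04 ± 0.31, adjusted p = 0.0218) and fell in the KO-labelled line (-1.01 ± 0.31, adjusted p = 0.0293), an interaction of -2.05 ± 0.44 (adjusted p = 0.0258). Of 10 other phosphatases of MAP kinases, 3 were higher and 0 lower at 8h in each line. Ptpn5, Ptpn7 and Ptprr passed the filter on dim probes through 8h or 8h2h groups alone. Their part in these counts is therefore no test of a rise, and they make up the whole Rescue-labelled count. Ptprr, a tyrosine phosphatase that binds ERK, was well above background on no array at 0h. Given as a value with no test, it was at least 4.49-fold higher at 8h in the Rescue-labelled line. In the KO-labelled line it was at least 2.47-fold higher. At 8h2h against 8h Ptprr differed by -0.72 ± 0.34 (adjusted p = 0.455) and -0.08 ± 0.34 (adjusted p = 0.911).

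The kinases that the phosphatases act on were counted too. Of 10 MAP kinase genes, 1 was higher and 2 lower at 8h in the Rescue-labelled line and 1 higher and 1 lower in the KO-labelled line, and 0 were called at 8h2h against 8h. At 8h these shares were near those of all genes. Mapk11, a p38 kinase gene, was the one that rose, by 0.80 ± 0.12 (adjusted p = 0.000235) and 1.03 ± 0.12 (adjusted p = 2.49e-05). Of 7 MAP kinase kinase genes, Map2k6, an activator of p38, fell at 8h (-0.81, adjusted p = 0.00312, and -1.40, adjusted p = 4.12e-05) and then rose by 0.78 ± 0.18 (adjusted p = 0.0283) and 0.66 ± 0.18 (adjusted p = 0.0384) at 8h2h against 8h. Map2k3 and Map2k5 were also lower at 8h in the KO-labelled line.

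**Figure D5:**
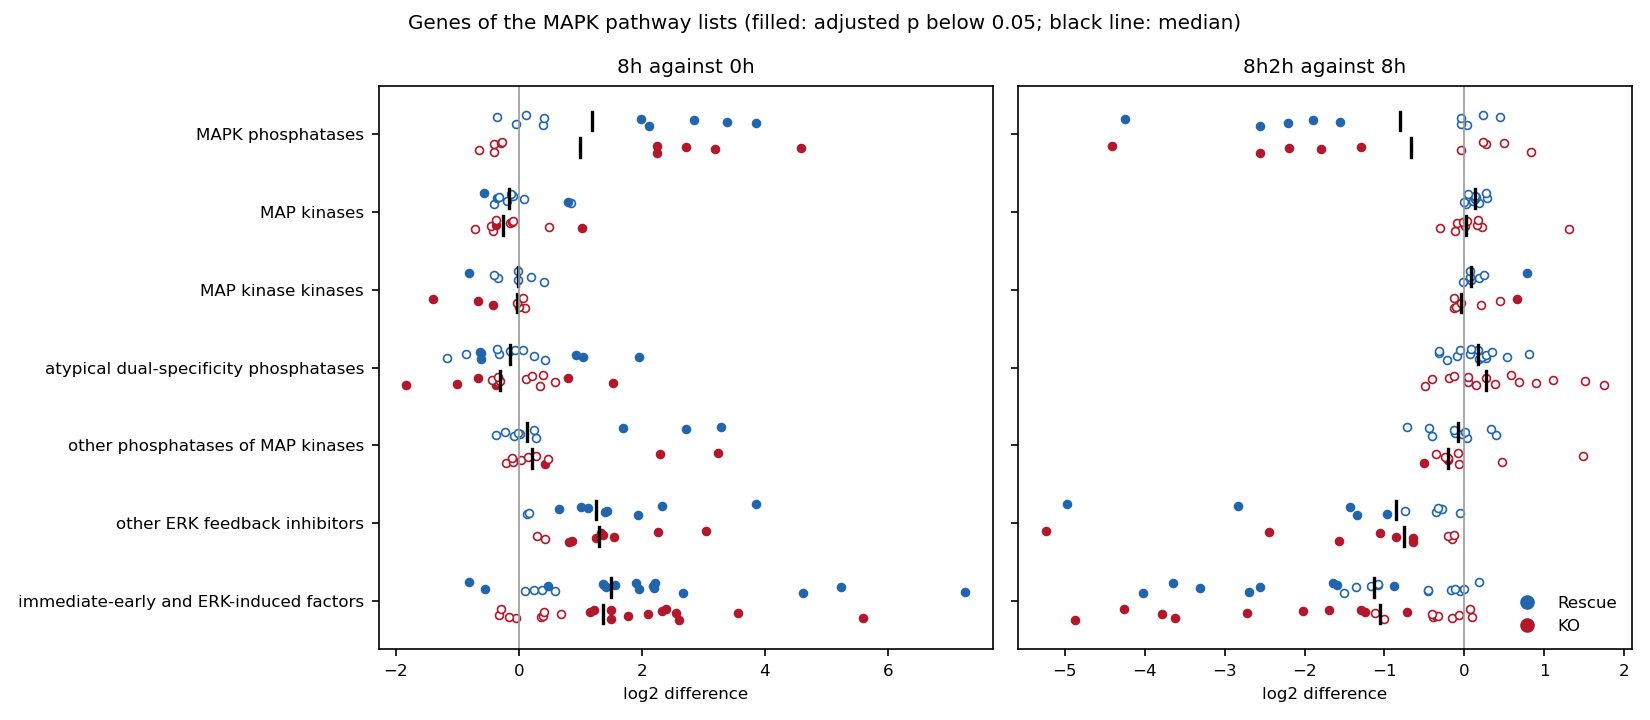
Log2 difference at 8h against 0h (left) and at 8h2h against 8h (right) for each tested gene of the MAPK phosphatases and of the 6 pathway lists (y axis), by labelled line. Filled points had an adjusted p below 0.05 and black lines are medians. The MAPK phosphatases, the other ERK feedback inhibitors and the immediate-early factors hold the points furthest to the left at 8h2h against 8h.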

How the data were processed

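RNA of 18 samples was hybridised to 1-colour Agilent arrays. Per the file headers, the authors extracted spots with Agilent Feature Extraction 12.0.1.1, and the deposited processed signal is a background-subtracted intensity with no scaling between arrays. The deposited spot flags (other values, not intensities) were read as well. The value table the authors deposited held identical intensities (largest difference 0). Per the labels the dye was Cy5, whereas the headers describe a green channel, which does not enter the values. The header's array design and the RefSeq promoter table come from different builds, so no probe coordinates are given.

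Probes were named through RefSeq transcripts. A probe was kept where some group had it well above background on each of its 3 arrays, and a gene was read from its brightest kept probe (16022 genes). Signals were logged (log2) and centred on the 75th percentile of their array. No spot was saturated. One model with a mean per group was fitted to the 18 arrays (limma 3.58.1 in R 4.3.3, files read with data.table, version 1.17.8), with Benjamini-Hochberg adjustment over all genes, two-sided, and a call at an adjusted p below 0.05. Adjusted p values come from it unless another setting is named beside them. The number of arrays limits the precision. Of the 45 pairs of arrays that share a slide, 28 had deviations correlated above 0.1 (median 0.141). Such correlation is a reason to block on slide, yet the main fit had no slide term, so its p values do not use the pairing. Blocking is given as an alternative, and it raised the number of genes called in every comparison. Between the lines at 0h that number went from 2941 to 3522. The fit was also run on simulated data with known changes. Its simulated arrays were independent, with no correlation within slides and no array with high background. That run therefore does not check the p values under either.

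The MAPK phosphatase genes, the pathway and marker lists, the tests and the motifs were chosen with earlier results of these data known. All 10 members are named whatever their values. From other lists up to 4 called genes with the largest change per contrast could be named, and for each called member the 3 named genes with the highest correlation. Marker lists covered embryonic stem cells, trophoblast, primitive endoderm (summed linear signal 0.355 to 2.23 on all arrays) and fibroblasts (2.07 to 21.2, with Lum well above background on no array). The fibroblast sum was 2.07 to 2.38 at 0h, 6.44 to 7.59 at 8h and 4.87 to 5.66 at 8h2h on the Rescue-labelled arrays. On the KO-labelled arrays it was 2.12 to 2.65, 14.8 to 21.2 and 9.6 to 14.8. Thy1 was the only fibroblast marker called higher at 8h against 0h in either line. Alternatives were normexp correction with an offset of 50, quantile normalization, no scaling, the authors' table, 2 other filters, averaging the probes of a gene, blocking on slide, fitting the compared arrays alone, a trended and robust prior, a fold minimum of 2, and single arrays left out.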

Additional observations from a re-analysis of the deposited data

Results flagged for a closer look

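The rise of Dusp4 from 0h to 8h differed between the labelled lines. It was larger on the KO-labelled arrays by 1.22 ± 0.20 on the log2 scale (adjusted p = 0.00555 by limma's interaction test, larger on 3 of 3 slides). Over its alternatives the value fell to 0.78 (adjusted p = 0.0956) with normexp correction and stayed at 1.20 but uncalled (adjusted p = 0.231) with no scaling.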

How the results depend on the processing

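Of 50 called changes of MAPK phosphatase genes, 37 kept their call and direction in every alternative setting that could be run for them, and 0 reversed. The 50 hold Dusp10 between the lines at 8h, which is given with no test and is not among the 37. For 33 of the 37 that was all 29 settings (11 choices of processing and 18 arrays left out in turn). For the other 4, of Dusp5 and Dusp8, it was 28, since the filter on all 18 arrays leaves these genes out. Not all settings could move a result. The authors' table was identical, and averaging probes left the size of change as it was for genes with 1 probe. An array outside a comparison entered it only through the shared spread. Most lost calls were those of Dusp5, Dusp9 and, between the lines at 8h, Dusp4 and Dusp7. With Dusp10 left out, the number of members called lower on the KO-labelled arrays at 8h was 7. It was 5 with no scaling or with probes required on all 18 arrays, a filter that leaves out Dusp5, Dusp8 and Dusp10. For Rescue-labelled 8h2h against 0h the count of 5 was 3 with no filter on dim probes and 3 with a 2-fold minimum, and 3 to 5 with each array left out. The interaction count of 1 at 8h against 0h was 0 with no scaling, 1 with normexp correction (Dusp7 in place of Dusp4) and 1 to 2 with each array left out, the second being Dusp7 without replicate b of the KO-labelled 8h arrays.

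With the slide as a replicate block the counts over the 3 line comparisons were 6, 8 (with Dusp10, which is given with no test) and 5. In the order 8h against 0h, 8h2h against 8h and 8h2h against 0h they were 5, 5 and 4 in the Rescue-labelled line, 6, 5 and 5 in the KO-labelled line, and 1, 0 and 0 for the interactions. The block dropped Dusp5 between the lines at 8h2h and in Rescue-labelled 8h2h against 0h, added Dusp16 in KO-labelled 8h and 8h2h against 0h, and changed no other member's call.

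Leaving out the scaling moved the median over all genes by 0.07 to 0.47 in comparisons of 2 groups. Dusp5 and Dusp10 were near background on the KO-labelled arrays, for Dusp5 mainly at 0h. Dusp8 was about as dim there, with means of -3.83, -4.13 and -3.63 at 0h, 8h and 8h2h against -4.10, -4.52 and -3.68 for Dusp10. This limits how well the changes of these 3 genes there, and their differences between the lines, can be read.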
